A study of Mus musculus with 34 samples.

Results

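The hippocampus of 5xFAD-Dp16 mice given tofacitinib was compared with that of 5xFAD-Dp16 mice given vehicle, called sham here. The labels place 7 of the 34 libraries of the series in this comparison, 4 from tofacitinib and 3 from sham animals, all 6 months old. Tofacitinib was gavaged daily over a month at 15 mg/kg, and sham animals received the vehicle, 0.5% methylcellulose, over the same time. All 7 animals carried the transgenes of 5xFAD, human genes with mutations of familial Alzheimer's disease, APP among them, driven by the neuronal Thy1 promoter. All 7 also carried Dp16, a duplication of the part of mouse chromosome 16 whose genes have their counterparts on human chromosome 21. Both groups therefore share the amyloid and the trisomy background. The tofacitinib group held 2 females and 2 males. The sham group held 2 females, libraries 1 and 2, and 1 male, library 4. The design text names 4 sham 5xFAD-Dp16 animals, and the other one was not analysed here. The other 27 libraries came from 5xFAD (5 tofacitinib, 4 sham), Dp16 (5 and 3) and WT mice (5 and 5), and entered the same fit.

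Tofacitinib is an oral inhibitor of Janus kinases (JAK), the enzymes that carry signals from receptors for interferons and many interleukins. A type I interferon binds the receptor pair Ifnar1 and Ifnar2, the attached kinases Jak1 and Tyk2 phosphorylate transcription factors of the STAT family such as Stat2, and these join Irf9 to bind interferon-stimulated response elements (ISRE) in the promoters of antiviral genes. Interferon gamma signals through Ifngr1 and Ifngr2 and drives a family of GTPases and antigen presentation genes. Ifnar1, Ifnar2, Ifngr2 and Il10rb lie in the segment that Dp16 mice carry in an extra copy. In plaque-bearing brain, microglia and astrocytes are known to express many of these genes.

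Promoters of 3 interferon-related genes of the results are shown because they hold the kind of element this pathway acts on. Sequences are from RefSeq on GRCm38.p6 and run from 250 bases before to 50 bases after the start of the gene, on the strand of the gene. Capitals mark matches on either strand to an ISRE-like motif, TTTC, then any pair of bases, then TTTC. Ifit1 is at chr19:34640639-34640938 (plus strand), Igtp at chr11:58199306-58199605 (plus strand) and Gbp2 at chr3:142620413-142620712 (plus strand).
Ifit1: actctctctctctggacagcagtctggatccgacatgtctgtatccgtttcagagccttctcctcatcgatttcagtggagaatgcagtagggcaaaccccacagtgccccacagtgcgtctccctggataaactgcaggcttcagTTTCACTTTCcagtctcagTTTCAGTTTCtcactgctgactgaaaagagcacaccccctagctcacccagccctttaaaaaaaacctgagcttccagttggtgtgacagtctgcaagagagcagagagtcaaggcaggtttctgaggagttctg
Igtp: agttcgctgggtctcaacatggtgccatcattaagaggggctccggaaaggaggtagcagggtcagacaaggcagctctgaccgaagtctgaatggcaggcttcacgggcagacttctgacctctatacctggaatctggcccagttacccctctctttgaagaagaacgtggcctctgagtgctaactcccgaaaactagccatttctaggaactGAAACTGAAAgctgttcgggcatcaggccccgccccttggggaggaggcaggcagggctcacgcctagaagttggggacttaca
Gbp2: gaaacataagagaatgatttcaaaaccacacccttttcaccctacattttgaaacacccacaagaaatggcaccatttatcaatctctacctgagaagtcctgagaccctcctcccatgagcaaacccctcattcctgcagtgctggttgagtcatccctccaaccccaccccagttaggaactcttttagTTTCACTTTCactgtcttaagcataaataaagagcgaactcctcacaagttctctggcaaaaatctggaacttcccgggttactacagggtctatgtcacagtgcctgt
Ifit1 held 2 matches, and Igtp, where the match is on the opposite strand, and Gbp2 held 1 each. A match was present in the promoters of 22 of the 43 type I interferon-stimulated genes with an entry (51.2%) and in 9 of 10 interferon-inducible GTPases (90%). All tested genes with an entry held one in 456 of 12640 promoters (3.61%). Neither window of Ifit2 held these letters, nor did that of Irf7. Psmb3, a proteasome gene outside both lists that is described with the smallest p, held 1 match.

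Libraries held 17.5 to 21.0 M counts in the tofacitinib group and 15.8 to 19.7 M in the sham group, where M is mega. Levels are in CPM, that is counts of a gene per M counts over all tested genes with TMM scaling, and list levels are the mean log2 CPM of the members with a prior count of 2. Thy1, read here as a check of the transgenes, was at 1735, 2848, 2093 and 2610 CPM in tofacitinib libraries and at 2555, 2875 and 1254 CPM in sham libraries, against 876 ± 40.2 CPM in WT sham libraries (SD, n = 5). The 4 receptor genes of the segment had a mean level of 5.21 to 5.4 log2 CPM over the 7 libraries, against 4.62 ± 0.09 in WT sham libraries (SD, n = 5), so all 7 libraries matched their genotype on both counts.

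Sham library 4 stood apart from the other 6 in the regions of brain it held. The 30 markers of dentate gyrus, CA1 and CA3 neurons had a mean level of 5.07, 5.39, 5.46 and 5.70 log2 CPM in tofacitinib libraries 1 to 4 and of 5.56, 5.68 and 3.41 log2 CPM in sham libraries 1, 2 and 4. The 20 markers of thalamus and habenula were at 4.28, 2.59, 2.67 and 2.58 log2 CPM in tofacitinib libraries and at 2.87, 2.76 and 5.22 log2 CPM in sham libraries. Both hippocampal neuron lists were low and the thalamus list was high in sham library 4, and tofacitinib library 1 lay between it and the rest. Tcf7l2, a transcription factor of thalamic neurons, was at 58.2, 5.65, 7.0 and 8.84 CPM in tofacitinib libraries and at 7.31, 8.43 and 230 CPM in sham libraries. Prox1, a transcription factor of dentate granule neurons, was at 54.4, 65.1, 81.0 and 119 CPM in tofacitinib libraries and at 89.4, 118 and 45.8 CPM in sham libraries. Log2 fold changes and list medians of the drug comparison are given with and without sham library 4, the only male of its group.

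**Figure D1:**
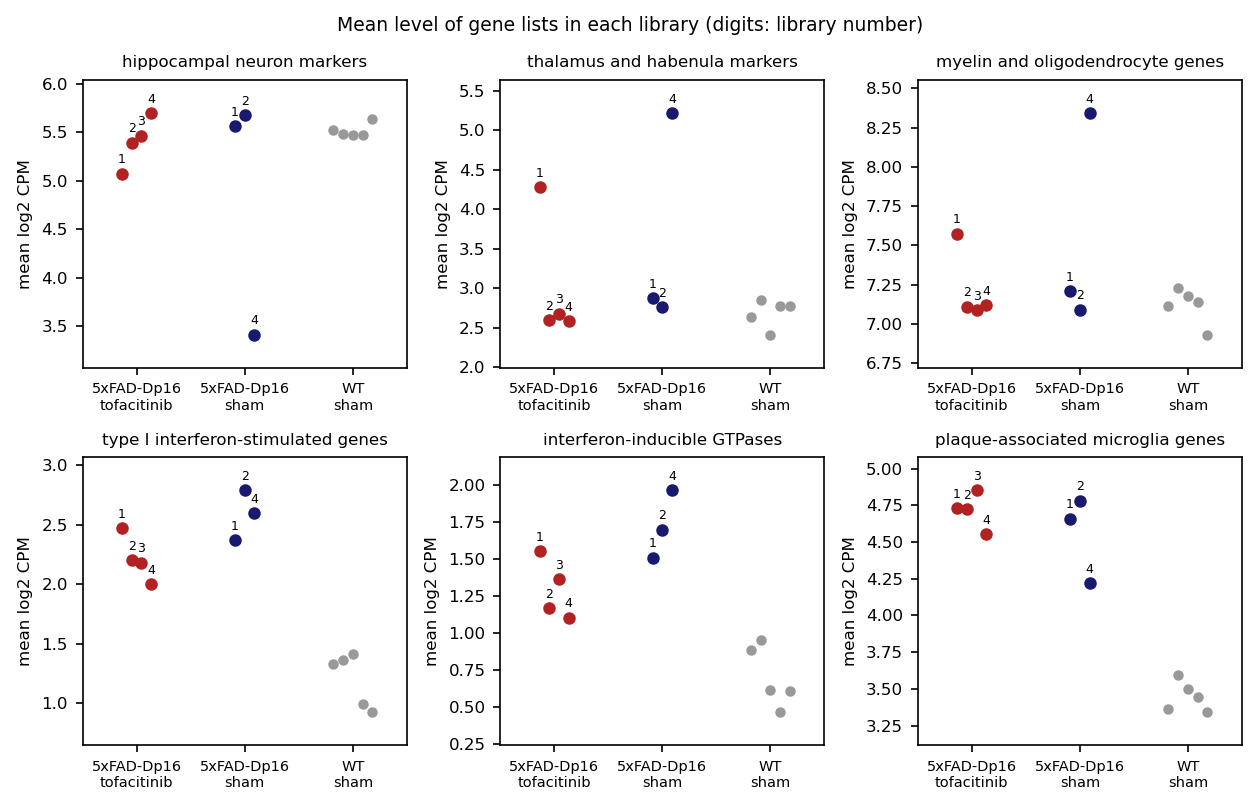
Mean log2 CPM of 6 gene lists in each library (points, with library numbers), for 5xFAD-Dp16 tofacitinib, 5xFAD-Dp16 sham and WT sham animals. Sham library 4 is at 3.41 in hippocampal neuron markers and at 5.22 in thalamus and habenula markers, and the interferon-stimulated genes of the 4 tofacitinib libraries lie between 2.00 and 2.47, against 2.37 to 2.79 in sham libraries.

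No gene passed the test between tofacitinib and sham 5xFAD-Dp16 libraries. Of 17518 genes, 0 (0%) had an adjusted p under 0.05 in edgeR's quasi-likelihood test, and the smallest adjusted p was 0.624. At an unadjusted p under 0.05 there were 781 genes lower (4.46% of those tested) and 526 higher (3%) with tofacitinib. DESeq2 called 3 genes, Psmb3, Egfl6 and Th, each at an adjusted p of 0.0436. Without sham library 4 again 0 of 17950 genes (0%) passed, the smallest adjusted p was 0.990, and 253 genes were lower (1.41%) and 392 higher (2.18%) at an unadjusted p under 0.05. The median standard error of a log2 fold change was 0.21, so a difference of the size of most values below was not detectable gene by gene with 4 and 3 animals.

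Type I interferon-stimulated genes stood lower in tofacitinib than in sham libraries for most members, none of them past the test. Of 60 listed genes, 57 passed the filter on low counts (Oas1b, Oas1g and Ifi44l did not), and 48 of the 57 had a log2 fold change below 0, against 50.2% of all genes. Their median log2 fold change was -0.27 beside 0.00 over all genes. At an unadjusted p under 0.05, 6 members were lower and 0 higher, beside 4.46% and 3% of all genes. Without sham library 4 the median was -0.18, with 41 of 57 below 0, beside 47.3% of all genes below 0. In that fit 1 member was lower at an unadjusted p under 0.05, beside 1.41% of all genes. Without sham library 2 the 6 lower members became 1, where 1223 of all 18020 genes tested were lower at that p. Without sham library 1 they became 9, where 1387 of all 18005 genes tested were lower. Among females alone, libraries 1 and 2 of each group, the median was -0.17. Without both sham library 4 and tofacitinib library 1, a choice made after seeing the data, it was -0.29. The list had a mean level of 2.47, 2.20, 2.18 and 2.00 log2 CPM in tofacitinib libraries 1 to 4 and of 2.37, 2.79 and 2.60 log2 CPM in sham libraries 1, 2 and 4. The groups overlapped, since tofacitinib library 1 was above sham library 1, and all 7 were above the WT sham libraries, which averaged 1.20 ± 0.23 log2 CPM (SD, n = 5). In bulk tissue, fewer cells of a type and less RNA per cell cannot be told apart.

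Ifit2, an antiviral effector that binds viral RNA (chromosome 19, 34550694 to 34576419, GRCm38), had the smallest p of the list. It was at 13.2, 12.6, 11.6 and 12.7 CPM in tofacitinib libraries and at 14.8, 22 and 21.9 CPM in sham libraries. All 4 tofacitinib libraries were below all 3 sham libraries, and the WT sham libraries averaged 9.95 ± 1.48 CPM (SD, n = 5). The log2 fold change was -0.63 (SE 0.17, 95% interval -0.99 to -0.27, unadjusted p = 0.0011, adjusted p = 0.668), and it was -0.47 without sham library 4.

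Ifit1, a related effector that recognises the cap of foreign RNA (chromosome 19, 34640871 to 34650009), was at 5.52, 5.65, 4.23 and 7.31 CPM in tofacitinib libraries and at 9.17, 10.9 and 9.82 CPM in sham libraries. Its groups did not overlap either, with a log2 fold change of -0.77 (SE 0.35, adjusted p = 0.668) and of -0.67 without sham library 4. The Ifit genes are close copies of each other, and none of the sources used here says how reads they share were counted.

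Irf7, the transcription factor that amplifies type I interferon production, was at 8.66, 6.41, 2.61 and 4.42 CPM in tofacitinib libraries and at 7.0, 14.7 and 8.39 CPM in sham libraries. The groups overlapped, as tofacitinib library 1 was above both sham library 1 and sham library 4, with a log2 fold change of -0.83 (SE 0.34, adjusted p = 0.668), or -0.78 without sham library 4. Zbp1, a sensor of Z-form nucleic acid chosen after its values were seen, had no overlap either, at 0.64, 0.38, 1.14 and 0.82 CPM in tofacitinib libraries and at 1.56, 1.84 and 1.81 CPM in sham libraries. In all, 4 of the 57 members had every tofacitinib library below every sham library and 0 had the reverse order, against 2.09% and 2.73% of all genes tested. Against sham libraries 1 and 2 alone, 9 members had all tofacitinib libraries below and 1 had all above, beside 5.1% and 6.1% of all genes.

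Other members went with neither group. Irf9, the DNA-binding partner of Stat2, was at 12.6, 11.4, 8.63 and 13.4 CPM in tofacitinib libraries and at 9.58, 15.9 and 9.54 CPM in sham libraries, with a log2 fold change of 0.01 (95% interval -0.39 to 0.41), or -0.08 without sham library 4. Stat2 had a log2 fold change of -0.14 (95% interval -0.46 to 0.18), or -0.08 without that library. The 9 members above 0 ranged up to 0.61.

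**Figure D2:**
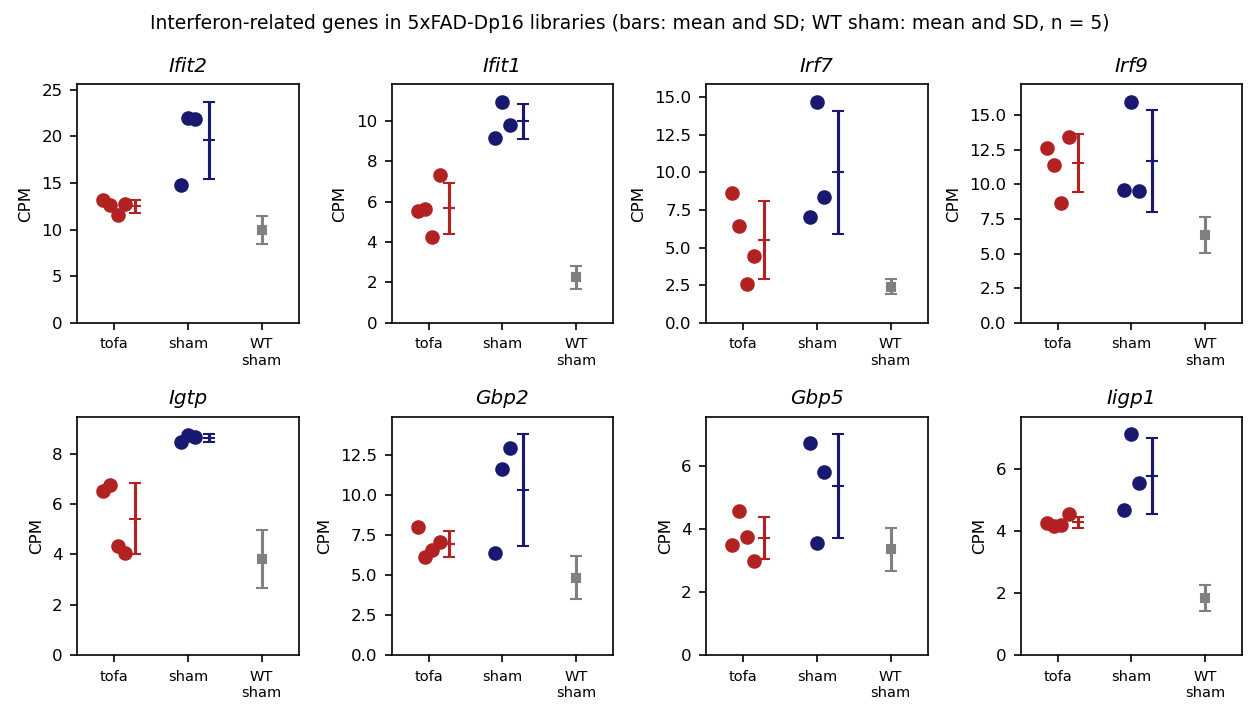
CPM per library (points) of 8 interferon-related genes in 5xFAD-Dp16 tofacitinib and 5xFAD-Dp16 sham libraries, with mean and SD, beside the mean and SD of WT sham libraries (squares, n = 5). The groups do not overlap for Ifit2, Ifit1, Igtp and Iigp1, and they do for Irf7, Irf9, Gbp2 and Gbp5.

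Interferon-inducible GTPases, which attack the vacuoles of intracellular pathogens and include both the guanylate-binding proteins and the immunity-related GTPases, lay lower in the same way. Of 18 listed genes 17 passed the filter (Gvin1 did not), 15 of the 17 had a log2 fold change below 0 and the median was -0.44, with 2 lower and 0 higher at an unadjusted p under 0.05, beside 4.46% and 3% of all genes. Without sham library 4 the median was -0.34, with 14 of 17 below 0, beside 47.3% of all genes. In that fit 0 members were at an unadjusted p under 0.05, beside 1.41% lower and 2.18% higher of all genes. Among females alone the median was -0.33. The list was at 1.55, 1.17, 1.36 and 1.10 log2 CPM in tofacitinib libraries and at 1.51, 1.70 and 1.96 log2 CPM in sham libraries, so that tofacitinib library 1 was above sham library 1 here too. In 4 of the 17 members every tofacitinib library was below every sham library, beside 2.09% of all genes.

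Igtp (chromosome 11, 58199556 to 58207591), an immunity-related GTPase, was at 6.53, 6.75, 4.34 and 4.07 CPM in tofacitinib libraries and at 8.47, 8.75 and 8.67 CPM in sham libraries. The groups did not overlap, and its log2 fold change was -0.66 (SE 0.34, adjusted p = 0.679), or -0.63 without sham library 4. Gbp2, a guanylate-binding protein that also marks reactive astrocytes, was at 7.96, 6.13, 6.57 and 7.07 CPM in tofacitinib libraries and at 6.35, 11.6 and 12.9 CPM in sham libraries. Its groups overlapped through sham library 1, with a log2 fold change of -0.55 (SE 0.26, adjusted p = 0.668) and of -0.22 without sham library 4. Gbp5 and Gbp9, of the same family, had log2 fold changes of -0.52 and -0.44, or -0.39 and -0.05 without sham library 4. Gbp2 and Gbp5 lie on chromosome 3 and Gbp9 on chromosome 5. The Gbp genes are close copies of each other, with the same limit on shared reads.

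Interferon-stimulated genes were high relative to WT in both 5xFAD-Dp16 groups and in the sham libraries of 5xFAD and Dp16. The list was at 1.70 to 2.06 log2 CPM in 5xFAD sham and at 1.53 to 2.12 in Dp16 sham libraries. WT sham libraries were at 0.93 to 1.41 log2 CPM. Between 5xFAD-Dp16 sham and WT sham libraries, 26 of the 57 interferon-stimulated genes were higher past the test with a median log2 difference of 1.33, against 0.816% of all genes higher past it. Between 5xFAD-Dp16 tofacitinib and WT tofacitinib libraries, 6 of the 57 were higher past the test with a median of 0.81, against 0.525% of all genes. Both comparisons share 5xFAD-Dp16 libraries with the drug comparison, so they are given side by side only. Without sham library 4 the count in sham animals was 14 of 57 with a median of 1.14. The WT tofacitinib group holds library 3, at 3.81 log2 CPM in hippocampal markers, and the count in tofacitinib animals is given only with it.

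Whether the response to the drug differed from that in the other genotypes was tested as a contrast of the response in 5xFAD-Dp16 and the mean response in 5xFAD, Dp16 and WT. Of 17518 genes 0 (0%) passed by edgeR, with 1113 at an unadjusted p under 0.05, and DESeq2 called 4. Interferon-stimulated genes had a median log2 fold change with tofacitinib of -0.27 in 5xFAD-Dp16, of -0.07 in 5xFAD, of -0.14 in Dp16 and of 0.12 in WT libraries. The median of the contrast was -0.24 over the list, and it was -0.16 without sham library 4. Ifit2 had a contrast of -0.73 (SE 0.20, adjusted p = 0.780) and Ifit1 of -0.89 (SE 0.40, adjusted p = 0.780). The GTPases had medians of -0.44 in 5xFAD-Dp16, of 0.07 in 5xFAD, of -0.22 in Dp16 and of -0.08 in WT libraries, with a contrast of -0.38, or -0.16 without sham library 4. Libraries of other genotypes also stood apart: the hippocampal markers were at 3.56 log2 CPM in tofacitinib library 2 of 5xFAD and at 3.81 log2 CPM in tofacitinib library 3 of WT mice, whose striatum markers were at 7.0 and 6.21 log2 CPM. Without these libraries and sham library 4, the interferon-stimulated genes had medians of -0.15 in 5xFAD-Dp16, of 0.01 in 5xFAD, of -0.12 in Dp16 and of 0.01 in WT libraries, and the median of the contrast was -0.13 over that list and -0.20 over the GTPases.

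**Figure D3:**
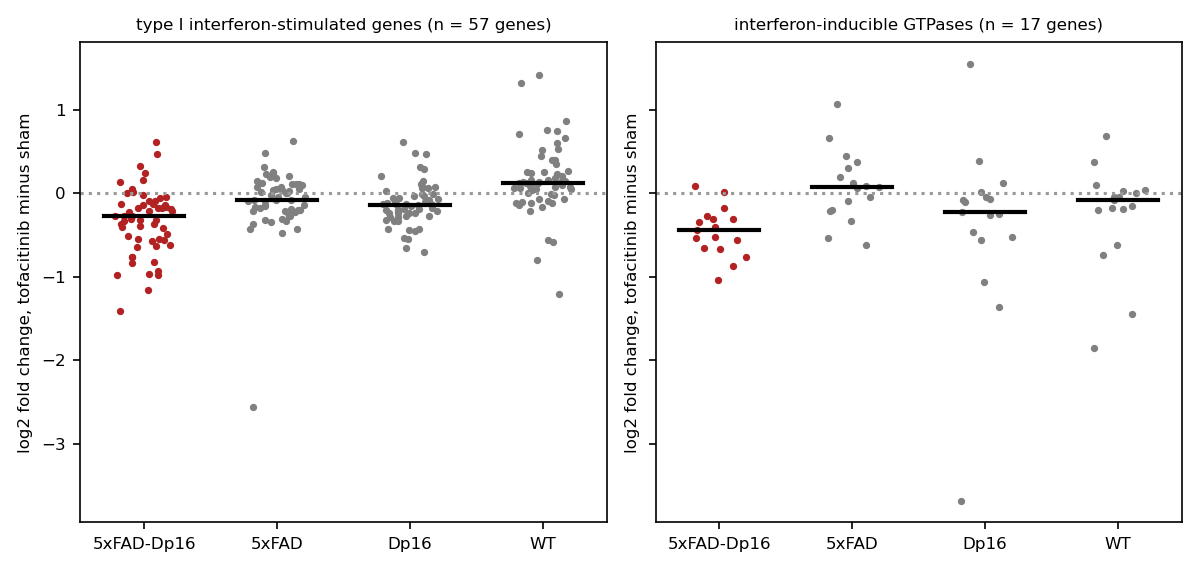
Log2 fold change, tofacitinib minus sham, of each tested gene (points) of the interferon-stimulated and the GTPase list in the 4 genotypes, with the median as a bar. In 5xFAD-Dp16 the medians are -0.27 and -0.44, and the points of the lists overlap between genotypes.

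Receptors and kinases of the pathway showed no difference past the test. Ifnar1 was at 58.5, 63.8, 51.0 and 55.6 CPM in tofacitinib libraries and at 58.0, 54.4 and 59.5 CPM in sham libraries, against 34.2 ± 3.20 CPM in WT sham libraries (SD, n = 5). The groups of 5xFAD-Dp16 libraries overlapped fully, with a log2 fold change of 0.01 (95% interval -0.18 to 0.20), or 0.08 without sham library 4. Ifnar2 and Il10rb, a subunit of the receptors for interleukin 10 and interferon lambda, had log2 fold changes of -0.04 (95% interval -0.26 to 0.19) and -0.06 (95% interval -0.39 to 0.26), and both were above 0 without sham library 4, at 0.04 for Ifnar2 and 0.10 for Il10rb. Ifngr2 was at 102 to 107 CPM in tofacitinib libraries and at 107, 109 and 64.1 CPM in sham libraries, low in sham library 4 alone, with log2 fold changes of 0.16 with and -0.08 without that library. The kinases that tofacitinib inhibits or that work beside them had log2 fold changes of -0.02 (Jak1), -0.09 (Jak2), 0.15 (Jak3) and -0.20 (Tyk2), none past the test. With that library left out they were -0.14 (Jak1), -0.07 (Jak2), 0.30 (Jak3) and -0.33 (Tyk2).

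Feedback genes of the pathway lay on both sides of 0, with a median of -0.01 over 20 members. At an unadjusted p under 0.05 there were 1 lower and 2 higher, beside 4.46% and 3% of all genes. The median was 0.00 without sham library 4, with 1 lower and 0 higher, beside 1.41% and 2.18% of all genes. Socs3, a feedback inhibitor of JAK signalling, was at 2.23, 3.40, 2.28 and 1.00 CPM in tofacitinib libraries and at 0.91, 1.25 and 0.93 CPM in sham libraries. Tofacitinib library 4 was below sham library 2, and the log2 fold change was 1.11 (SE 0.53, adjusted p = 0.668), or 1.02 without sham library 4. Cish, induced by STAT5, had a log2 fold change of -0.17 (95% interval -0.995 to 0.66), or 0.42 without sham library 4. Pias3, an inhibitor of STAT3, was at 17.7, 20.1, 18.3 and 20.6 CPM in tofacitinib libraries and at 26.8, 23.8 and 22.7 CPM in sham libraries. Its groups did not overlap, with a log2 fold change of -0.34 (SE 0.13, adjusted p = 0.668), or -0.37 without sham library 4.

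Antigen presentation genes of MHC class I had a median of -0.05 over 19 members, with 12 below 0, and 0.09 without sham library 4. Psmb8, an inducible subunit of the immunoproteasome, was at 11.4, 9.09, 8.36 and 8.66 CPM in tofacitinib libraries and at 6.35, 9.28 and 4.50 CPM in sham libraries. The groups overlapped through sham library 2, with a log2 fold change of 0.53 (SE 0.27, adjusted p = 0.683), or 0.33 without sham library 4. MHC class II genes, 8 in number, had a median of -0.29, or 0.55 without sham library 4.

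Genes of plaque-associated microglia, the state microglia take around amyloid, were at similar levels in both groups. The list had a mean level of 4.73, 4.72, 4.85 and 4.55 log2 CPM in tofacitinib libraries and of 4.66, 4.78 and 4.22 log2 CPM in sham libraries, against 3.45 ± 0.10 log2 CPM in WT sham libraries (SD, n = 5). The groups overlapped, and sham library 4 was the lowest of the 7. The median log2 fold change over 40 members was 0.18, and it was 0.05 without sham library 4. Apoe, a lipid carrier whose human counterpart is the main genetic risk locus of late Alzheimer's disease, was at 3272, 2753, 3386 and 2749 CPM in tofacitinib libraries and at 2683, 2410 and 2710 CPM in sham libraries. Here every tofacitinib library was above every sham library, with a log2 fold change of 0.23 (SE 0.12, adjusted p = 0.693), or 0.27 without sham library 4. Tyrobp, the adaptor of the receptor Trem2, had a log2 fold change of 0.56 (SE 0.33, adjusted p = 0.709), or 0.24 without sham library 4. Spp1, which encodes osteopontin, was at 18.1, 5.22, 20.0 and 5.95 CPM in tofacitinib libraries and at 8.92, 6.78 and 80.4 CPM in sham libraries, and its log2 fold change was -1.37 with and 0.81 without sham library 4.

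The median of 16 genes for amyloid precursor and secretases was -0.07, and that of 29 reactive astrocyte genes was -0.05, or -0.01 and 0.15 without sham library 4. App was at 2130, 2642, 2145 and 2488 CPM in tofacitinib libraries and at 2440, 2744 and 2991 CPM in sham libraries, against 1666 ± 207 CPM in WT sham libraries (SD, n = 5). The 5xFAD-Dp16 groups overlapped, with a log2 fold change of -0.20 (95% interval -0.50 to 0.10), or -0.08 without sham library 4. App lies on chromosome 16 (84949685 to 85173766), the chromosome that Dp16 duplicates in part, and reads of the human APP transgene may have been counted on it. What an extra mouse copy and transgene reads each add to the difference from WT was not tested. Of 22 genes of cholesterol biosynthesis, 18 were above 0 with a median of 0.11, where 50.2% of all genes were below 0, and 4 were higher at an unadjusted p under 0.05, beside 3% of all genes. The list was at 5.18, 5.60, 5.48 and 5.56 log2 CPM in tofacitinib libraries and at 5.32, 5.20 and 5.32 log2 CPM in sham libraries. The groups overlapped, as tofacitinib library 1 was below every sham library. In the fit without sham library 4 there were 16 above 0 with a median of 0.10, where 47.3% of all genes were below 0, and 4 higher, beside 2.18% of all genes.

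Of 37 lists, 23 had medians on opposite sides of 0 with and without sham library 4. Myelin genes, whose mean level was 8.34 log2 CPM in that library and 7.09 to 7.57 in the other 6, had a median of -0.48 with 18 of 18 members below 0, and of 0.14 with 15 of 18 above 0 without it. The 25 neuronal immediate-early genes had a median of 0.28 with it and of -0.07 without it. The interferon-stimulated and GTPase lists kept a median below 0 without it, as the plot of list medians shows. Other lists also had a median below 0 without it, among them oligodendrocyte precursor genes and the list of Janus kinases, STATs and IRFs. The part that the tissue makeup of libraries plays in these medians was not tested.

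**Figure D4:**
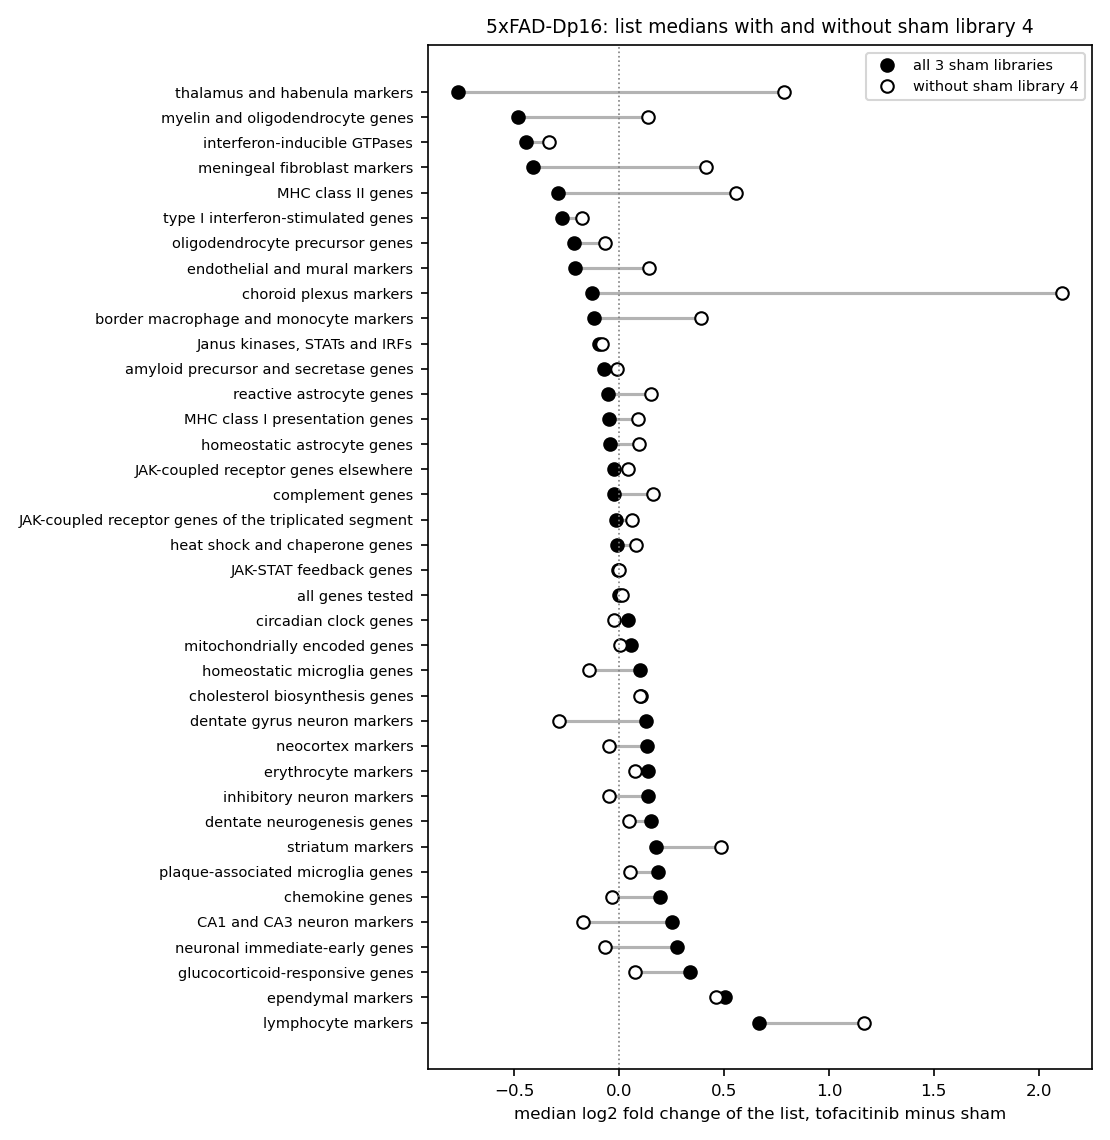
Median log2 fold change, tofacitinib minus sham, of each of 37 lists and of all genes tested in 5xFAD-Dp16, with all 3 sham libraries (filled) and without sham library 4 (open). The myelin list stands at -0.48 and 0.14, the interferon-stimulated genes at -0.27 and -0.18, and the GTPases at -0.44 and -0.34.

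The genes with the smallest p include some that are steady within each group, which a choice by p favours. Psmb3 (chromosome 11, 97703399 to 97713500), a constitutive subunit of the proteasome core, was at 52.2, 46.5, 49.5 and 49.1 CPM in tofacitinib libraries and at 40.8, 31.3 and 34.2 CPM in sham libraries, against 48.7 ± 2.54 CPM in WT sham libraries (SD, n = 5). Every tofacitinib library was above every sham library and near the WT level, with a log2 fold change of 0.46 (SE 0.10, 95% interval 0.27 to 0.66, unadjusted p = 3.75e-05, adjusted p = 0.624), or 0.41 without sham library 4. It passed without sham library 1 (0.60, adjusted p = 0.0212). Thap7, a zinc-finger repressor, was at 21.9, 22.2, 22.2 and 24.2 CPM in tofacitinib libraries and at 16.4, 17.0 and 14.4 CPM in sham libraries, with no overlap and a log2 fold change of 0.49 (SE 0.12, adjusted p = 0.668), or 0.39 without sham library 4. Wnk3, a kinase that regulates chloride transport, was at 22.7, 20.2, 25.8 and 26.3 CPM in tofacitinib libraries and at 29.6, 37.3 and 37.8 CPM in sham libraries, also with no overlap and a log2 fold change of -0.56 (SE 0.13, adjusted p = 0.668), or -0.50 without that library.

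Egfl6, a secreted matrix protein with EGF-like repeats (chromosome X, 166523007 to 166585720), was at 2.39, 1.87, 1.90 and 2.36 CPM in tofacitinib libraries and at 4.49, 4.74 and 9.93 CPM in sham libraries. Its groups did not overlap, and the log2 fold change was -1.58 (SE 0.35, adjusted p = 0.624), or -1.03 without sham library 4. Mt2, a metallothionein, was at 88.6, 144, 159 and 135 CPM in tofacitinib libraries and at 108, 83.7 and 61.1 CPM in sham libraries, with overlap and a log2 fold change of 0.65 (SE 0.17, adjusted p = 0.668), or 0.44 without that library. Tie1, an endothelial receptor, and Ttbk2, a kinase of cilia, had log2 fold changes of -0.58 each, or -0.31 and -0.18 without sham library 4.

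Other genes of that rank rested on 1 library. Th, the rate-limiting enzyme of dopamine synthesis, was at 1.12, 1.29, 0.71 and 0.65 CPM in tofacitinib libraries and at 0.71, 0.39 and 75 CPM in sham libraries. Kctd9 was at 8.50, 8.76, 6.08 and 7.42 CPM in tofacitinib libraries and at 7.81, 9.22 and 49.5 CPM in sham libraries, and its log2 fold change of -1.53 became 0.00 without sham library 4. Both were high in sham library 4 alone, and Kctd9 passed without sham library 1 (adjusted p = 0.0399). Ddx3y, on chromosome Y, was at 49.5 and 49.4 CPM in the 2 male tofacitinib libraries and at 82.3 CPM in sham library 4, and at 0 in the females, so its comparison rests on a single male sham animal.

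Without sham library 4 the smallest p belonged to Pomc, the precursor of melanocortins, which was at 1.91, 1.39, 1.14 and 2.24 CPM in tofacitinib libraries and at 64.8 and 4.02 CPM in sham libraries 1 and 2 (adjusted p = 0.990). It was high in sham library 1 alone. Psmb3 was the gene that stood among the 10 smallest p both with and without sham library 4. Of the 57 genes chosen by the naming rule, 12 had a log2 fold change on the other side of 0 without it.

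**Figure D5:**
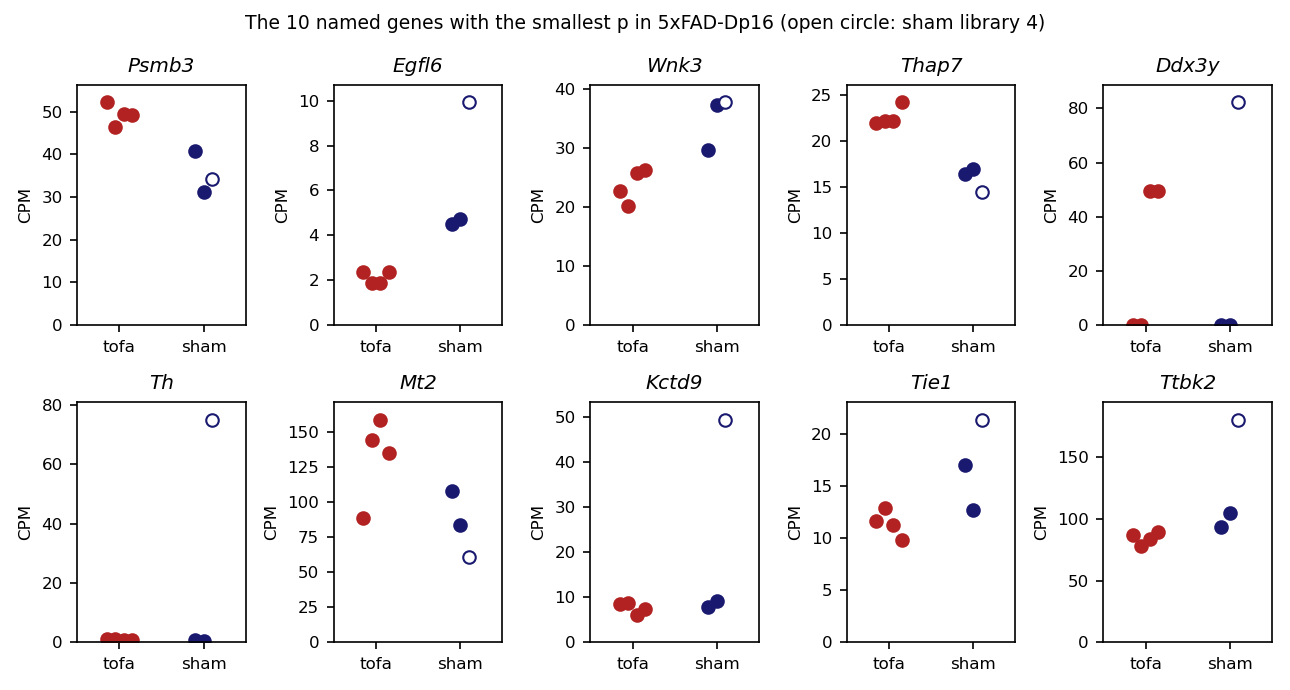
CPM per library (points) of the 10 genes with the smallest p and a mean of at least 1 CPM, for 5xFAD-Dp16 tofacitinib and sham libraries, with sham library 4 as an open circle. Psmb3 lies at 46.5 to 52.2 in tofacitinib and at 31.3 to 40.8 in sham libraries, and Th and Kctd9 are high in sham library 4 alone.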

How the data were processed

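RNA of the hippocampus was made into strand-specific poly(A) libraries and read as pairs on a NovaSeq instrument, per the labels' protocols. The deposited table, made by the authors, holds whole read counts per gene, unnormalised, for 34 libraries. Per the submitters' processing notes, HTSeq 0.6.1, SAMtools 1.5, HISAT2 2.1.0, FastQC 0.11.5 and bcl2fastq were used with the build GRCm38, and no roles are given. The strand setting and the treatment of reads that match several genes are not stated there, which leaves overlapping genes and close paralogs uncertain. A deposited RPKM table was not used here.

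The filter filterByExpr by group left 17518 of 55385 genes. These were scaled by TMM, and edgeR 4.0.16 in R 4.3.3 gave the robust quasi-likelihood F-test. All 34 libraries entered 1 fit with 8 group means and a sex term (25 residual degrees of freedom, median prior 5.84). Contrasts were two-sided, and p-values were adjusted over all tested genes by Benjamini-Hochberg (threshold 0.05). Adjusted p-values come from edgeR unless DESeq2 is named. Intervals of 95% are the log2 fold change ± 2.04 standard errors. Replicates are separate numbered samples. No label ties equal numbers to a shared litter or day, and the fit has no pairing. The steps were tested on simulated data.

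There were 37 gene lists with 703 entries, 702 of them matched and 672 tested. They are described by counts and medians. The libraries compared and the lists were chosen with earlier results of these data known. Genes named by rule were 17 check genes, the 10 with the smallest p and at least 1 CPM with and without sham library 4, and the 4 smallest p of each of 6 lists (57 genes in all). Of these 1 is not reported here, and it stays in the counts over lists. Positions are from GENCODE release 21 on GRCm38, which matched 99.6% of the gene identifiers, and promoters from RefSeq.

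Alternatives were DESeq2 size factors, upper quartile scaling, no filter, no sex term, a replicate block, DESeq2 1.42.0, 2 surrogate variables (sva 3.50.0), the hippocampal marker level as a covariate, females alone, the 7 libraries alone, and leaving out libraries.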

Additional observations from a re-analysis of the deposited data

Results flagged for a closer look

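Within the 4 tofacitinib libraries, 6 of 94 levels tested (56 genes and 38 lists) had 1 library far from the other 3. For a single level, chance alone gives this in about 1 group in 20. The 94 levels come from the same libraries and are not independent, so their count cannot be read against that rate. Tofacitinib library 1 was the one apart in 3 of the 6. Its mean level was 7.57 log2 CPM in myelin and oligodendrocyte genes, against 7.09 to 7.12 in the other 3. It was at 4.28 log2 CPM in thalamus and habenula markers, against 2.58 to 2.67, and at 5.06 log2 CPM in striatum markers, against 3.67 to 3.81. Tofacitinib library 2 was at 5.12 log2 CPM in neocortex markers, against 4.63 to 4.68. Tofacitinib library 4 was at 5.79 log2 CPM in inhibitory neuron markers, against 5.70 to 5.72, and at 24.2 CPM in Thap7, against 21.9 to 22.2. Sham groups of 3 were not examined in this way.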

How the results depend on the processing

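Under 19 alternatives planned and 2 added after seeing the data, 0 interferon-stimulated genes passed, and the list's median stayed below 0, from -0.39 to -0.15, as did that of the GTPases, from -0.54 to -0.28. The medians of oligodendrocyte precursor genes (-0.32 to -0.02) and of Janus kinases, STATs and IRFs (-0.15 to -0.03) stayed below 0 too. The count of genes changed by tofacitinib was 387 with no filter on low counts, 80 with no filter and without sham library 4, and 3 with DESeq2 (Th, Egfl6 and Psmb3). The count of genes whose response differed between genotypes was 535 with no filter, 38 with no filter and without sham library 4, and 4 with DESeq2 (Th, Glra1, Pomc and Chrna6). Without a filter the median prior degrees of freedom became infinite, against 5.84 with it, so the spread of most genes was set by the common trend alone. Of those 387 genes, 376 pass the filter, 0 are interferon-stimulated genes of the list, and 316 were highest in sham library 4. In that fit without sham library 4, Tcf7l2 was called with the opposite sign, 1.61 against -2.36. Leaving out 1 library at a time gave 0 to 4 changed genes and 0 genes with a differing response. The 4 came without sham library 1 (Slc6a3, Kctd9, Tcf15 and Psmb3) and 1 without sham library 2 (Slc6a3), all named after their values were seen.

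With the replicate block, 0 genes passed in all libraries and 0 in the 7 alone. Deviations of same-numbered libraries from their group means had r of -0.20 (number 1), 0.28 (number 2) and -0.21 (number 4). Only the pair numbered 2 was above 0, and not every library correlated best with its own number. The 7 libraries alone give no test against the other genotypes. The sham group holds 3 animals, 1 of them male and low in hippocampal markers, so within that group sex, region and that library cannot be told apart. The sex term of the fit draws on all 34 libraries.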
